A study of Mus musculus with 6 samples.

Results

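The unfolded protein response and the integrated stress response were followed through 33 genes in 6 libraries of mouse primary pulmonary fibroblasts, connective tissue cells cultured from lung. The genes were chosen by symbol as a list of textbook members of these pathways, with earlier results of these data known. All 33 were found among the 25239 rows of the gene table. They were divided into 11 genes of the ATF4 arm, 13 chaperones and folding factors of the ATF6 and XBP1 arm, 5 genes of endoplasmic reticulum-associated degradation (ERAD) and 4 genes for the stress sensors and Xbp1. Quiescent fibroblasts (3 libraries) were compared with fibroblasts in Nutlin 3a-induced senescence (3 libraries). Nutlin 3a blocks the binding of Mdm2 to p53. The induction text names 16 hours of RO3306, an inhibitor of Cdk1, before 48 hours of Nutlin 3a. It then names 100 nM of BI-2536, a Plk1 inhibitor, to remove proliferating cells, and gives a total of 12 days. That text is attached to the quiescent samples as well, and the sources used here do not state how quiescence was reached. All cells were kept in 10% serum and 5% oxygen, and neither strain, sex nor age of the mice is given. Whether drug exposure and the selection against dividing cells differed between the groups is therefore not known. If they did, their effects cannot be told apart from senescence itself in any comparison.

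Cells slow translation and rebuild their folding capacity when unfolded proteins gather in the endoplasmic reticulum. PERK (gene Eif2ak3) and other kinases phosphorylate the translation factor eIF2, which lowers general protein synthesis and raises translation of the transcription factor ATF4. IRE1 (gene Ern1) splices the Xbp1 mRNA, and ATF6 is cut in the Golgi to free its transcription factor domain; both routes raise chaperone and ERAD genes. Fibroblasts are secretory cells that fold and export large amounts of collagen, so their basal demand for these chaperones is high. ATF4 protein, Xbp1 splicing and ATF6 cleavage are not measured by counts per gene.

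To show which known elements the promoters of each arm hold, promoter windows of the RefSeq annotation (GRCm38.p6, from 250 bases before to 50 after each start) were searched on both strands for 4 motifs. These were the endoplasmic reticulum stress element ERSE (CCAAT and CCACG with 9 bases between them), the related ERSE-II (ATTGG and CCACG with 1 base between them), the UPR element core (TGACGTGG), and the core of the C/EBP-ATF response element, CARE (TGATGNAA). Windows were matched for 30 of the 33 genes, 31 windows in all because Atf5 has an extra start; Hyou1, Manf and Atf6 had no entry. ERSE was present in the windows of 9 genes, against 0.119% of all 32851 windows, so that 9 of the 39 windows in the genome table that hold it belonged to these genes. Of the 9, 7 were in the chaperone arm (Calr, Canx, Creld2, Dnajc3, Hsp90b1, Hspa5 and Pdia6), 2 in the ERAD group (Derl3 and Syvn1) and 0 in the ATF4 arm. The CARE core, which 3.97% of all windows hold, was in 4 ATF4 arm windows (Asns, Chac1, Nupr1 and Trib3), in 0 chaperone windows and in that of Herpud1. Herpud1 alone among these genes also held ERSE-II (0.0365% of all windows), and the UPR element core (0.676% of all windows) was in 0 of the 31. ERSE and ERSE-II share CCACG and, on opposite strands, CCAAT, but no match of one motif overlapped a match of another. A match describes letters in a window and does not show that a factor binds there. The motifs, like the genes, were taken as textbook items of these pathways, so their excess over all windows is no independent finding. Only exact matches were counted, and a window without one may still hold a near match.

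The 6 sequences shown hold the most matches in each of the ATF4 and chaperone arms, and among equals belong to the genes that changed most. Each is the 250 bases before the RefSeq start, 5′ to 3′ on the strand of the gene, with the motif matches in capitals. A match on the opposite strand reads as the reverse complement of its motif. The ATF4 arm windows are those of Chac1 (chr2:119350992-119351241, plus strand), Asns (chr6:7693210-7693459, minus strand) and Nupr1 (chr7:126625471-126625720, minus strand), and their capitals mark the CARE core.
Chac1: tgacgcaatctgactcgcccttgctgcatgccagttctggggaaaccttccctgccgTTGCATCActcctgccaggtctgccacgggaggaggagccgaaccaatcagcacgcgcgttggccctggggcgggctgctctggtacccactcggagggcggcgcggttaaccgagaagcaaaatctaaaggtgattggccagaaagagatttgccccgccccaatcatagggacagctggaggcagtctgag
Asns: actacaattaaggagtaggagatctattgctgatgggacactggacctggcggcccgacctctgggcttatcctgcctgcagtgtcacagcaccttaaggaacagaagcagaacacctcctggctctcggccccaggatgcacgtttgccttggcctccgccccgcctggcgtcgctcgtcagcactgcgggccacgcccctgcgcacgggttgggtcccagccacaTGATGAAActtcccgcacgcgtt
Nupr1: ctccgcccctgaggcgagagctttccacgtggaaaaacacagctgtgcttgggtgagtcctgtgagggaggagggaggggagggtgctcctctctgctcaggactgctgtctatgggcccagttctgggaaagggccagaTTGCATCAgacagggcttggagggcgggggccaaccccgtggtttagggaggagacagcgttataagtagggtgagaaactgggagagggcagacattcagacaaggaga
The chaperone windows are those of Hspa5 (chr2:34771840-34772089, plus strand), Hsp90b1 (chr10:86705445-86705694, minus strand) and Dnajc3 (chr14:118937682-118937931, plus strand), and their capitals mark ERSE, which occurs at 2 places in Hsp90b1.
Hspa5: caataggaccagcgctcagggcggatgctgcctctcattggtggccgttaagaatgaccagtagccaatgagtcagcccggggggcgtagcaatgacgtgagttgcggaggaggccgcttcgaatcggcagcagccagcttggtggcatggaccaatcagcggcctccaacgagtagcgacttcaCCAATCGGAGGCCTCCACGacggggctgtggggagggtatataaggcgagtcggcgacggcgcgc
Hsp90b1: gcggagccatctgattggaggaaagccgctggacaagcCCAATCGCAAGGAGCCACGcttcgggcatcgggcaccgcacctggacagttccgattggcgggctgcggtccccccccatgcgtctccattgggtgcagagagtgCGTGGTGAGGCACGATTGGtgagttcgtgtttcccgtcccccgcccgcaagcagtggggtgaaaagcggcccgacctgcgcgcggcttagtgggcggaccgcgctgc
Dnajc3: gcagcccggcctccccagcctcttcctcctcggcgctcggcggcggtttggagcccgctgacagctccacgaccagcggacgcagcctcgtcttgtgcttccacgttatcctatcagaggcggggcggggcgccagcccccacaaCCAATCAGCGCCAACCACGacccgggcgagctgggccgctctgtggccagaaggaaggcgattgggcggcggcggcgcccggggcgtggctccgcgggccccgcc

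Sequencing depth was similar in all libraries, at 93736593 to 109706025 counts in the gene table, of which 18219831 to 21386546 lay outside the ribosomal rows Rn45s, Lars2 and Mir6236. The 33 genes together held 203107 to 231522 counts per library, or 1.07% to 1.12% of the counts outside the ribosomal rows. Levels are given as CPM, counts scaled to the usual CPM unit by the TMM-adjusted total with ribosomal rows included, and are therefore low in absolute terms. Senescent replicate 3 was the library least like its group (Pearson r across genes of 0.993 and 0.991 with the other senescent libraries, which had 0.995 with each other). Fibroblast markers summed to 3855 to 3943 CPM in quiescent and 2151 to 2623 in senescent libraries, and all 8 were detected. They did not move together. Col3a1 (mean 1342 CPM in quiescent and 348 in senescent libraries), Col1a2, Pdgfra, Pdgfrb and Lum were lower. Vim (277 and 346 CPM) and Dcn (98.2 and 111 CPM) were higher, and Col1a1 did not pass. Sums for 9 macrophage markers were 3.99 to 4.25 and 10.9 to 14.4 CPM, for 6 endothelial markers 6.78 to 7.66 and 11.0 to 13.2, and for 6 epithelial markers 0.0941 to 0.228 and 0.0671 to 0.146. Cd14 was the largest part of the macrophage sums, at a mean of 2.31 CPM in quiescent and 6.88 in senescent libraries. Lyz2, Csf1r, Cd68 and Mrc1 were also higher. Ptprc, with 0 to 9 counts per library, was too low to test, as were Adgre1, Fcgr1 and Itgam. Plasma cells, which run a strong unfolded protein response, had 5 markers at 12.0 to 12.9 and 20.5 to 24.0 CPM, nearly all from Sdc1, which fibroblasts also express; Tnfrsf17 was at 0 in every library. Within the endothelial list the markers went in opposite directions. Flt1 was higher, at 1.83 ± 0.170 CPM in quiescent and 8.17 ± 0.647 in senescent libraries (SD, n = 3 per group). Cdh5 was also higher, at 0.234 ± 0.0220 and 1.16 ± 0.420 CPM, and Tek was lower, at 3.40 ± 0.115 and 0.534 ± 0.103. Kdr and Vwf did not pass, and Pecam1 was too low to test. The part of these other cell types in the results was not tested. In bulk RNA, fewer cells of a type and less RNA per cell cannot be told apart.

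The 33 genes did not move as a block. Senescent fibroblasts had higher levels of ATF4 targets such as Chac1, Ppp1r15a, Asns and Ddit3, of the sensor genes Ern1 and Atf6, and of some chaperones, with Dnajb9 and Hyou1 ahead. Stc2, Dnajc3, Herpud1, Sel1l, Nupr1 and Xbp1 were lower. In edgeR's quasi-likelihood test (adjusted p under 0.05 over all 14065 tested genes) 18 of the 33, or 54.5%, were higher, beside 36.7% of all tested genes, and 6, or 18.2%, were lower, beside 37.8%. In either direction 24 of the 33 passed (72.7%), close to the 74.5% of all tested genes, and 9 did not. More than 2-fold increases were called for 7 of the 33, beside 11.0% of all genes, and more than 2-fold decreases for 0, beside 14.3%. The split depended on scaling. Ribosomal rows made up 79.8% to 82.8% of each library total. TMM factors were 1.06 to 1.14 in quiescent and 0.845 to 0.938 in senescent libraries. With library totals in place of TMM factors 11 of the 33 were higher and 15 lower (2952 and 7435 of all tested genes, in place of 5158 and 5316), and with upper quartile scaling 16 were higher and 10 lower (4474 and 6005 of all tested genes). The median log2 fold change (senescent over quiescent) of the 33 was 0.18 and that of all tested genes -0.02. The CPM of the groups did not overlap for 26 of the 33 (78.8%), which is near the 78.3% of all tested genes. The senescent libraries were all above in 19 of the 33, beside 38.4% of all tested genes, and all below in 7, beside 39.9%.

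**Figure D1:**
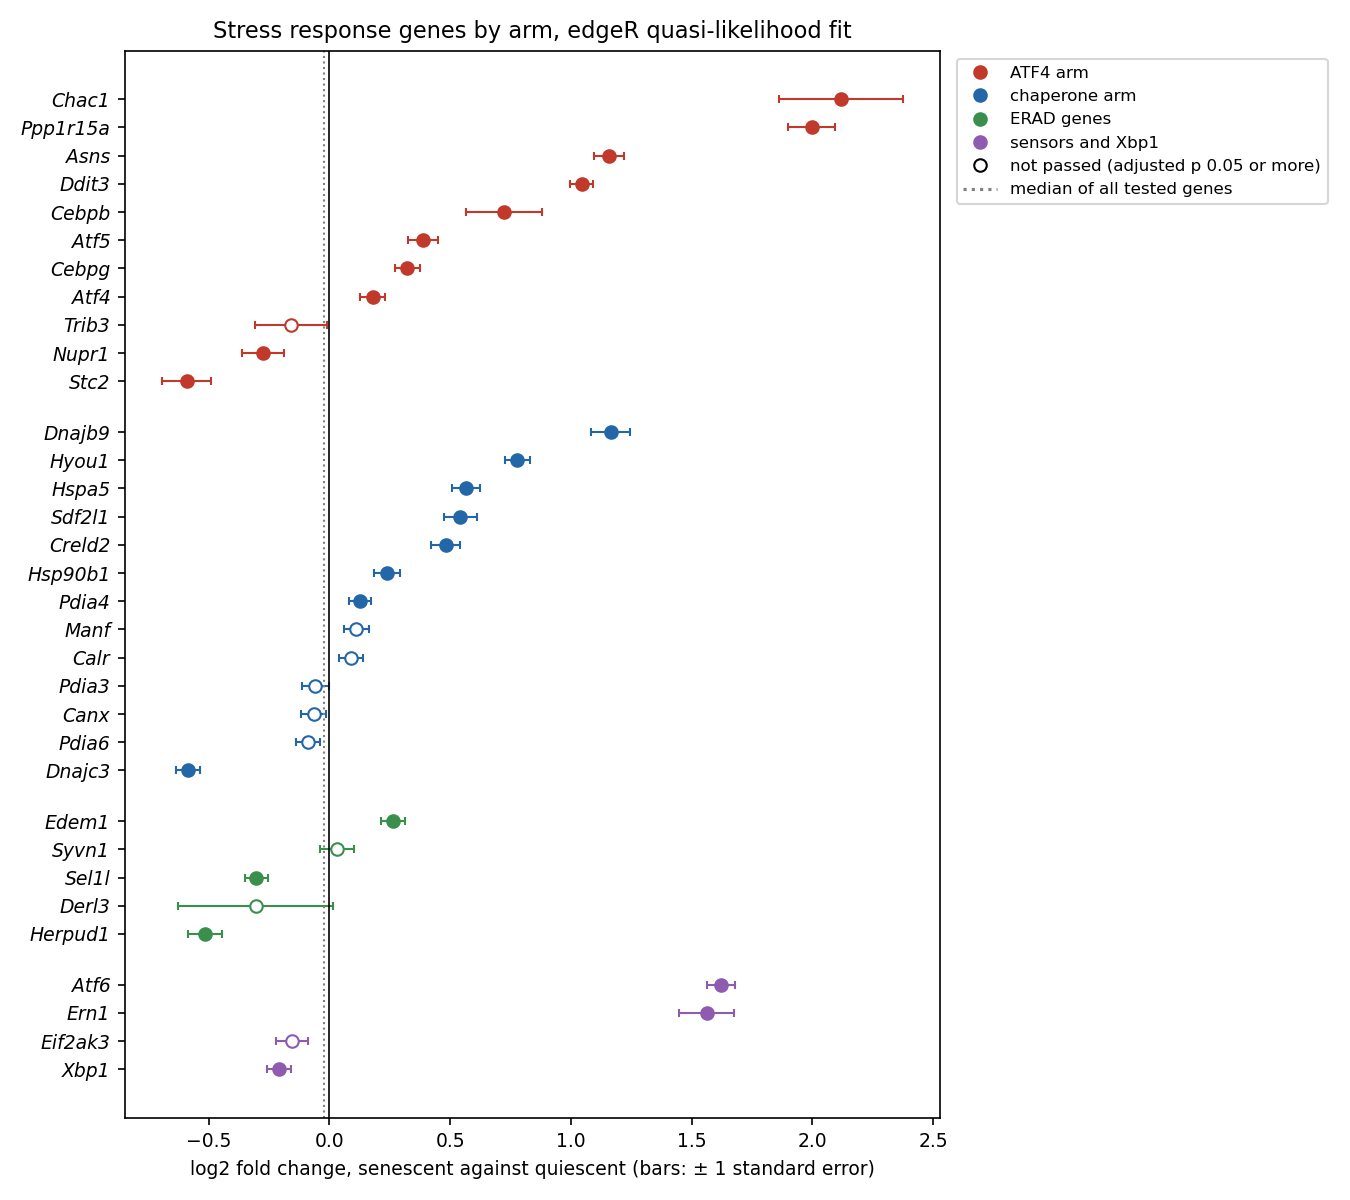
Log2 fold change of each of the 33 genes (senescent over quiescent, 3 libraries per group) with its standard error, grouped by arm; filled points passed the edgeR test and the dotted line is the median of all 14065 tested genes. Chac1 and Ppp1r15a lie highest at 2.12 and 2.00, Stc2 and Dnajc3 lowest at -0.59 and -0.58, and 5 of the 13 chaperone genes are open points near 0.

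In the ATF4 arm, 8 of 11 genes rose and 2 fell (5 and 3 with library totals), with a median log2 fold change of 0.39. The shares, 72.7% and 18.2%, stand beside 36.7% and 37.8% of all tested genes. Chac1 (chromosome 2, 119351229 to 119354381) encodes an enzyme that breaks down glutathione. It was at 1.20, 1.24 and 0.944 CPM in the quiescent libraries and at 4.38, 3.61 and 6.73 in the senescent ones. Every senescent library lay above every quiescent one, with senescent replicate 3 well above the other senescent libraries. The increase was 4.35-fold (log2 fold change 2.12, standard error 0.26, edgeR adjusted p = 1.7e-04), and 1.83 to 2.30 on the log2 scale when any one library was left out.

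Ppp1r15a (chromosome 7, 45522916 to 45526268) encodes GADD34, the phosphatase subunit that reverses eIF2 phosphorylation. Its level was 9.69, 10.4 and 10.2 CPM in quiescent and 36.7, 37.0 and 47.1 in senescent libraries. The groups were far apart, and again senescent replicate 3 was the highest. The log2 fold change was 2.00 (standard error 0.10, edgeR adjusted p = 8.5e-08). Ddit3 (chromosome 10, 127290774 to 127296288), the gene of the transcription factor CHOP, was at 12.1, 12.0 and 11.6 CPM against 23.9, 24.7 and 25.2. It doubled with little spread within either group (log2 fold change 1.05, standard error 0.05, edgeR adjusted p = 4.5e-09). Asns (chromosome 6, 7675169 to 7693254), for asparagine synthetase, had 10.2, 9.72 and 8.67 CPM against 21.4, 20.9 and 21.4. This rise was of the same order (log2 fold change 1.16, standard error 0.06, edgeR adjusted p = 1.4e-08).

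Ddit3 apart, the transcription factor genes of the arm had smaller fold changes. Atf4 itself (chromosome 15, 80255184 to 80257541) was at 31.9, 32.1 and 31.0 CPM in quiescent and 34.8, 34.6 and 38.2 in senescent libraries. The groups did not overlap, but the increase was small (1.13-fold, log2 fold change 0.18, standard error 0.05, edgeR adjusted p = 0.0080) and depended on scaling: the value was -0.12 with library totals in place of TMM factors, and the call was lost with upper quartile scaling (log2 fold change 0.084, edgeR adjusted p = 0.15). Atf5, a related factor that is also controlled by translation, went from 40.0 ± 2.41 to 52.3 ± 3.58 CPM (SD, n = 3 per group; log2 fold change 0.39). Cebpg, a dimer partner of ATF4, went from 11.1 ± 0.110 to 13.9 ± 0.460 CPM (log2 fold change 0.32). With library totals neither passed (log2 fold changes 0.089 and 0.025). Cebpb, a C/EBP factor active in inflammation as well as in amino acid limitation, was at 16.0, 14.6 and 18.5 CPM against 22.6, 25.2 and 33.3. Here the senescent libraries were all above the quiescent ones but widely spread, and the log2 fold change of 0.73 had a standard error of 0.16 (edgeR adjusted p = 0.0048). Counts for Cebpb are uncertain because 20.7% of its exon length is overlapped on the opposite strand by Tmem189, and the sources used here do not state whether counting used strand. Tmem189 itself held 371 to 474 counts per library, against 1705 to 3428 for Cebpb.

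Not every ATF4 target rose. Trib3, a pseudokinase that restrains ATF4 and CHOP, was at 3.14, 2.96 and 2.07 CPM in quiescent and 2.69, 2.44 and 2.22 in senescent libraries. The groups overlapped and the gene did not pass (log2 fold change -0.16, standard error 0.15, edgeR adjusted p = 0.36), although it passed as lower with library totals (-0.46, adjusted p = 0.022) and without quiescent replicate 3 (adjusted p = 0.023). Its log2 fold change ran from -0.32 without quiescent replicate 3 to -0.050 without quiescent replicate 1. Nupr1, a small stress-induced chromatin protein, was at 25.9, 25.6 and 23.3 CPM against 22.0, 22.2 and 17.6. It was lower by 0.28 on the log2 scale (log2 fold change -0.28, edgeR adjusted p = 0.016), a call lost without quiescent replicate 1 or 2 (adjusted p = 0.056 for each). Without senescent replicate 3 the log2 fold change was -0.17, and with library totals -0.58. Stc2, a secreted glycoprotein, was at 11.9, 12.4 and 10.3 CPM against 7.00, 7.03 and 8.86, with no overlap. It fell most in this arm (log2 fold change -0.59, standard error 0.10, edgeR adjusted p = 4.5e-04). Of the 4 genes whose windows held the CARE core, Chac1 and Asns rose, Nupr1 fell and Trib3 did not pass. Of the 7 whose windows held no exact match, 6 rose and 1 fell. Among all tested genes 36.7% rose and 37.8% fell, and a link between the element and direction was not tested.

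Among the chaperones and folding factors, 7 of 13 rose, 1 fell and 5 did not pass, and the median log2 fold change was 0.13. Of all tested genes 36.7% rose and 37.8% fell, against 53.8% and 7.69% in this arm. With library totals 4 rose and 7 fell and the median was -0.17, and with upper quartile scaling 6 rose and 4 fell. Dnajb9 (chromosome 12, 44205559 to 44210326) encodes ERdj4, a J-domain protein that directs BiP and restrains IRE1. It was at 9.76, 10.3 and 9.61 CPM in quiescent and 20.3, 21.0 and 25.2 in senescent libraries. It was the only chaperone gene past 2-fold (log2 fold change 1.16, standard error 0.08, edgeR adjusted p = 1.8e-07). Hyou1, for the large chaperone and BiP nucleotide exchange factor GRP170, was at 58.8, 59.0 and 61.4 CPM against 97.1, 104 and 107. The quiescent and senescent values were each tight and well apart (log2 fold change 0.78, standard error 0.05, edgeR adjusted p = 7.3e-08).

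Hspa5 (chromosome 2, 34771970 to 34777547) encodes BiP, the main Hsp70 chaperone of the endoplasmic reticulum. Its level was 164, 176 and 175 CPM in quiescent and 238, 259 and 266 in senescent libraries. The groups were separate and the increase was 1.48-fold (log2 fold change 0.57, standard error 0.06, edgeR adjusted p = 3.4e-06). Sdf2l1, a cofactor of BiP and ERdj proteins, had a log2 fold change of 0.54 and Creld2, a secreted folding factor, of 0.48; each passed, although Creld2 did not with library totals (0.19, edgeR adjusted p = 0.052). Hsp90b1, for the chaperone GRP94, was at 328, 353 and 333 CPM against 400, 409 and 387. That step was small (log2 fold change 0.24, edgeR adjusted p = 0.0016) and turned to -0.061 with library totals. An antisense pseudogene, 1810014B01Rik, covers 10.3% of the Hsp90b1 exons and held only 8 to 25 counts. Pdia4, a disulfide isomerase, was at 53.1 ± 1.70 and 58.0 ± 1.45 CPM (SD, n = 3 per group; log2 fold change 0.13, edgeR adjusted p = 0.028). Its call was lost without any one of quiescent replicates 1 and 2 and senescent replicates 1 and 2 (edgeR adjusted p 0.062 to 0.13), and its value turned to -0.17 with library totals.

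The 5 chaperone genes that did not pass had small fold changes. Calr (calreticulin) and Canx (calnexin), the lectin chaperones of new glycoproteins, had log2 fold changes of 0.09 and -0.06. For Pdia3 and Pdia6, which form and rearrange disulfide bonds, the values were -0.06 and -0.09. Manf, a secreted BiP-binding factor, had 0.11. None of these 5 passed (edgeR adjusted p 0.073 to 0.36), and standard errors of 0.05 to 0.06 limit how small a change could be seen. Pdia3, Pdia6 and Canx passed as lower with library totals and with upper quartile scaling, and Manf and Calr as lower with library totals. Manf passed as higher with RLE size factors (log2 fold change 0.13, edgeR adjusted p = 0.046). It also did so when quiescent replicate 1 was left out (log2 fold change 0.15, adjusted p = 0.032) or senescent replicate 3 was (0.11, adjusted p = 0.038). Dnajc3 (chromosome 14, 118937976 to 118981697) encodes P58IPK, a BiP cochaperone that also inhibits PERK. It was at 59.6, 61.0 and 61.2 CPM in quiescent and 40.8, 42.3 and 38.1 in senescent libraries. All senescent values were below all quiescent ones, and it fell by 0.58 on the log2 scale (standard error 0.05, edgeR adjusted p = 7.9e-07). Genes with the same promoter element thus took different courses. Of the 7 chaperone genes with ERSE, Hspa5, Hsp90b1 and Creld2 rose, Dnajc3 fell and 3 did not pass. Of the 4 whose windows held no exact match, 3 rose. Among all tested genes 36.7% rose and 37.8% fell, and a link between ERSE and direction was not tested.

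**Figure D2:**
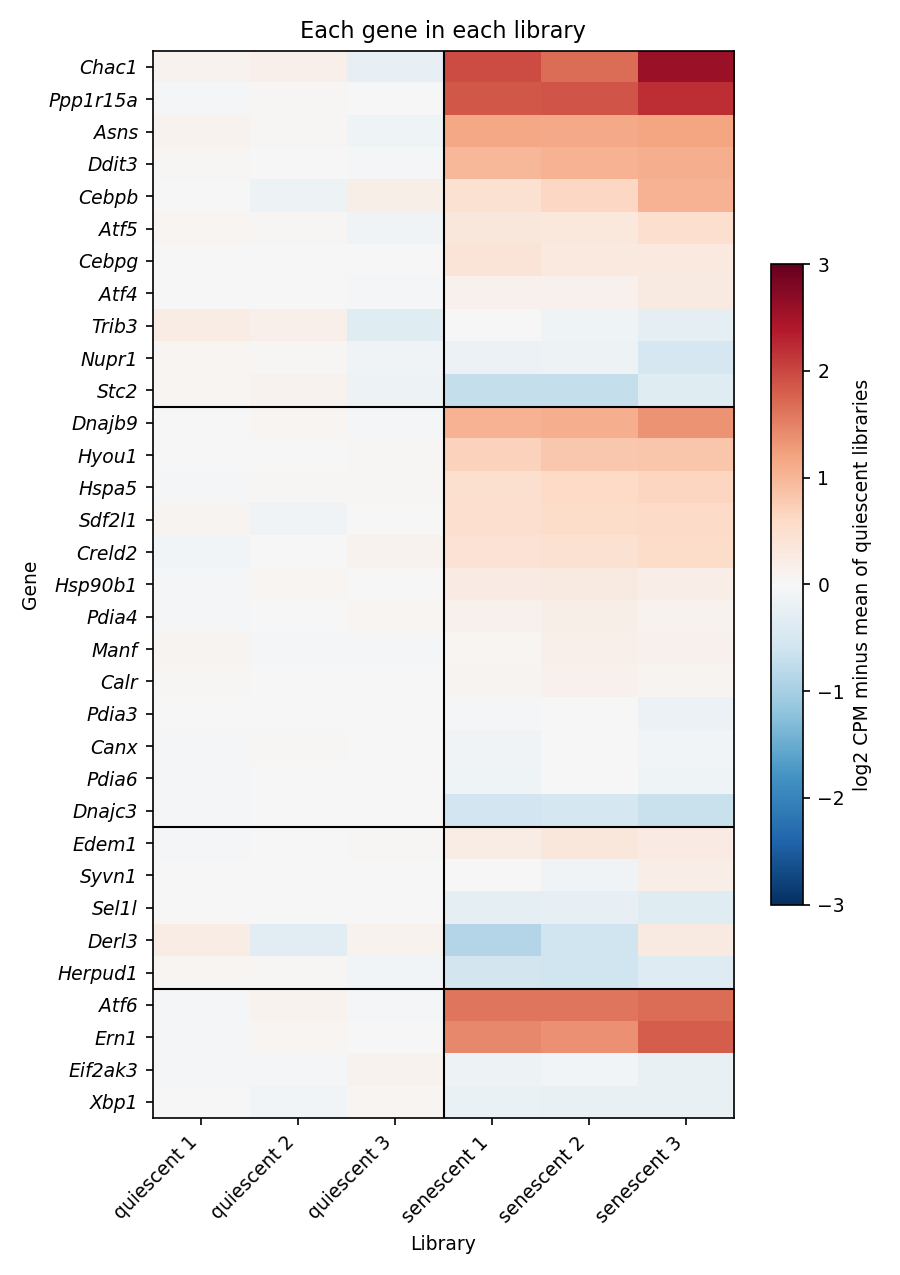
Log2 CPM of each gene in each of the 6 libraries, minus the mean of the 3 quiescent libraries of that gene, with lines between the 4 groups of genes. The strongest increases are in Chac1, Ppp1r15a, Atf6 and Ern1, with senescent replicate 3 the darkest library for Chac1 (6.73 CPM) and Ern1 (36.2 CPM), while Dnajc3 and Herpud1 are blue in all 3 senescent libraries.

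Set against each other, the arms differed in the size of their shift. The mean log2 CPM of the 11 ATF4 arm genes was 3.48, 3.47 and 3.34 in the quiescent libraries and 4.02, 3.99 and 4.16 in the senescent ones. For the 13 chaperone genes it was 6.02, 6.04 and 6.04 against 6.25, 6.32 and 6.30. Both arm means were higher in every senescent library than in any quiescent one on this TMM scale. The difference between the arms within a library, in which the scaling of a library cancels apart from the small prior count, was -2.60 ± 0.0875 in quiescent and -2.23 ± 0.0964 in senescent libraries (SD, n = 3 per group). It thus moved by 0.37 on the log2 scale toward the ATF4 arm. That arm had 4 genes past 2-fold (Chac1, Ppp1r15a, Asns and Ddit3) and the chaperone arm 1 (Dnajb9). Among all tested genes 11.0% were called higher past 2-fold. Left-out libraries gave 0.32 to 0.42. These values describe genes chosen with earlier results of these data known, and carry no p.

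**Figure D3:**
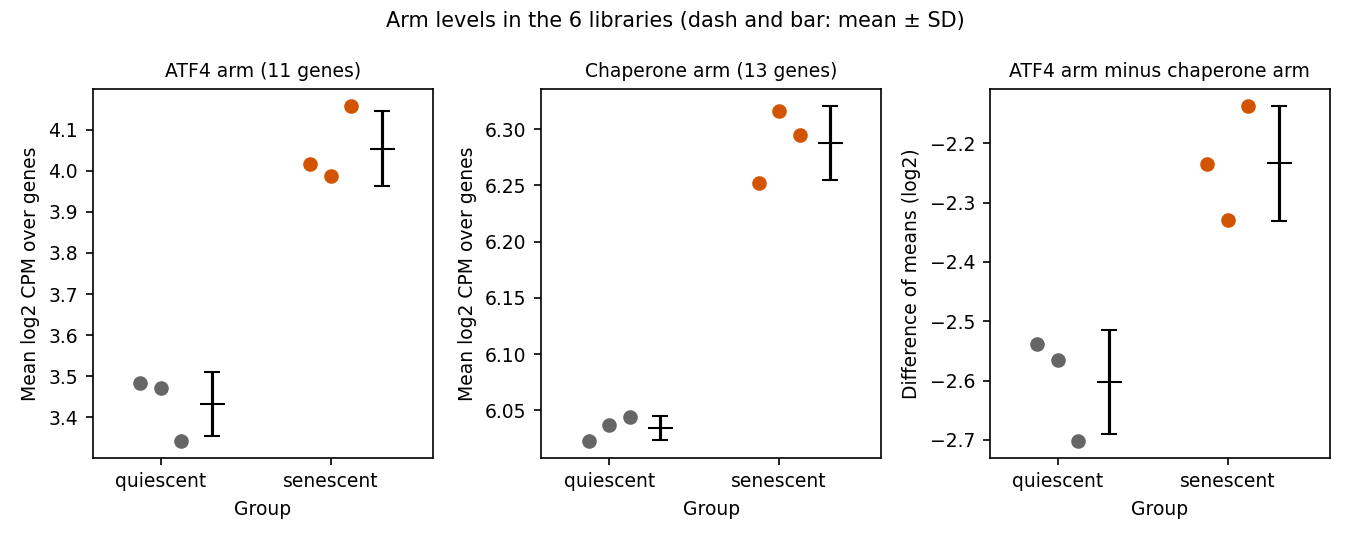
Mean log2 CPM of the ATF4 arm and of the chaperone arm, and their difference, in each library (points; dash and bar give the mean ± SD of 3 libraries; the vertical ranges differ between panels). In each panel the 3 senescent libraries lie above the 3 quiescent ones, with a difference between arms of -2.23 against -2.60.

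The sensors and Xbp1 split, with 2 higher and 1 lower of 4 (2 and 2 with library totals or upper quartile scaling). Of all tested genes 36.7% were higher and 37.8% lower. Atf6 (chromosome 1, 170704674 to 170867771), for the sensor that is cleaved into a transcription factor, was at 12.5, 13.9 and 12.3 CPM in quiescent and 38.9, 38.9 and 41.3 in senescent libraries. This 3.08-fold increase (log2 fold change 1.62, standard error 0.06, edgeR adjusted p = 5.8e-10) was the third largest of the 33. Ern1 (chromosome 11, 106394650 to 106487852), for the kinase and RNase IRE1, was at 9.78, 10.6 and 10.2 CPM against 27.8, 26.6 and 36.2. Senescent replicate 3 was again highest, and the log2 fold change was 1.56 (standard error 0.11, edgeR adjusted p = 2.9e-06). Eif2ak3, for PERK, was at 10.2, 10.3 and 11.6 CPM against 9.53, 10.1 and 9.20. Its groups did not overlap, but it narrowly missed the threshold (log2 fold change -0.15, standard error 0.07, edgeR adjusted p = 0.0504) and crossed it as lower in 6 of the 16 alternatives. Xbp1 (chromosome 11, 5520659 to 5525893) encodes the factor whose mRNA IRE1 splices. It was at 20.4, 19.3 and 21.1 CPM against 17.7, 17.4 and 17.4, and fell slightly without overlap (log2 fold change -0.21, standard error 0.05, edgeR adjusted p = 0.0025). Spliced and unspliced Xbp1 were counted together.

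Genes of ERAD, the route that returns misfolded proteins to the cytosol for destruction, gave 1 higher and 2 lower of 5 (0 and 3 with library totals). Of all tested genes 36.7% were higher and 37.8% lower. Herpud1 (chromosome 8, 94386438 to 94395377) encodes a membrane scaffold of the degradation complex. It was at 10.0, 9.83 and 9.15 CPM in quiescent and 6.58, 6.36 and 7.36 in senescent libraries, with no overlap. It fell by 0.52 on the log2 scale (standard error 0.07, edgeR adjusted p = 3.8e-05), although its window held ERSE-II and a CARE core. Sel1l, the adaptor of the ubiquitin ligase HRD1, was lower in senescent cells, at 40.8 ± 1.77 CPM against 50.4 ± 0.387 (SD, n = 3 per group; log2 fold change -0.30, edgeR adjusted p = 1.2e-04). Edem1, a mannosidase-like lectin that picks substrates, rose from 26.7 ± 0.589 to 32.1 ± 1.42 CPM (log2 fold change 0.26, edgeR adjusted p = 4.2e-04; -0.036 with library totals). Syvn1, the gene of HRD1 itself, did not pass (9.73 ± 0.113 and 9.94 ± 1.04 CPM, edgeR adjusted p = 0.70). Derl3, a Derlin channel protein typical of professional secretory cells, had 11 to 25 counts per library, too few for a difference of this size to be seen (log2 fold change -0.31, standard error 0.32).

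Levels of different genes were compared per kilobase of merged exon length, which joins the exons of every annotated transcript of a gene. A gene expressed mainly as a shorter transcript is placed too low by this measure, so the order of genes is approximate. Calr was the highest of the 33 in both groups, at 116 ± 2.01 CPM per kb in quiescent and 124 ± 2.50 in senescent libraries (SD, n = 3 per group), followed by Hsp90b1 at 83.8 ± 3.28 and 99.0 ± 2.74. In quiescent cells Canx (61.4 ± 1.23) came next, then Pdia3 (43.3 ± 0.284) and Hspa5 (40.6 ± 1.52). In senescent cells Hspa5 (60.1 ± 3.49) and Canx (58.7 ± 2.18) stood within their spread of each other, above Pdia3 (41.6 ± 2.83). The folding machinery thus kept the top 5 places in both groups. On this measure Atf5 was the most abundant ATF4 arm gene (20.1 ± 1.21 and 26.2 ± 1.80). Ppp1r15a went from place 24 (3.43 ± 0.119) to place 14 (13.7 ± 2.02), close to Ddit3 (14.4 ± 0.384) and Atf4 (15.2 ± 0.864). The 3 sensor genes were near one another in quiescent libraries, with Eif2ak3 at 1.77 ± 0.125, Atf6 at 1.40 ± 0.0906 and Ern1 at 1.25 ± 0.0521. In senescent libraries Eif2ak3 was the lowest of the 3, at 1.59 ± 0.0735 against 4.30 ± 0.151 and 3.70 ± 0.637. Derl3 was lowest of all at 0.102 ± 0.0196 and 0.0815 ± 0.0355.

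**Figure D4:**
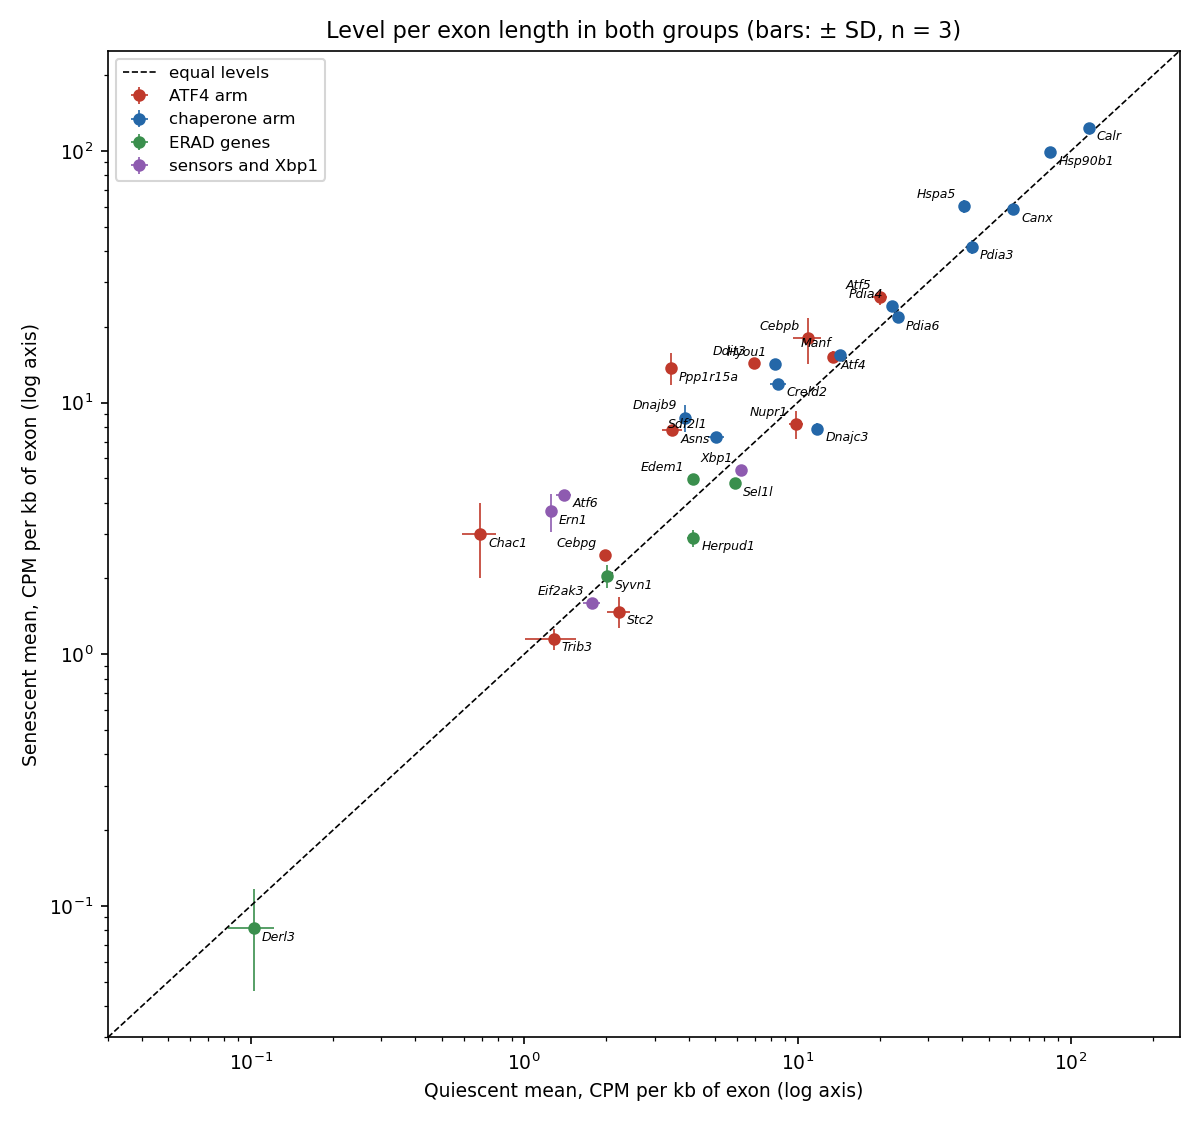
Level per kilobase of merged exon in senescent against quiescent libraries for the 33 genes (log axes, points are means and bars SD of 3 libraries, the dashed line marks equal levels). Calr, Hsp90b1, Canx and Pdia3 lie at the top right near the line with Hspa5 somewhat above it, whereas Chac1, Ern1, Atf6 and Ppp1r15a lie well above it and Derl3 sits alone at 0.102 and 0.0815.

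Other genes of the same pathways were listed by function. Beside the counts in these lists and their parts stand those of all 14065 tested genes, of which 36.7% were higher and 37.8% lower. With library totals 2952 of all tested genes were higher and 7435 lower, and with upper quartile scaling 4474 and 6005. Of 36 other ATF4 targets, 25 rose and 6 fell (22 and 10 with library totals), with a median log2 fold change of 0.71. Vegfa, an angiogenic factor that hypoxia also induces, was at 31.8, 31.2 and 31.5 CPM in quiescent and 270, 270 and 354 in senescent libraries (log2 fold change 3.24). Slc7a11, the cystine carrier, was at 4.53, 6.12 and 5.59 CPM against 37.3, 38.1 and 55.1 (log2 fold change 3.00). In the other direction, the glutamine carrier gene Slc1a5 (log2 fold change -1.33) and Pck2, for mitochondrial PEP carboxykinase (-0.94), fell. Groups within this list were picked after their values were seen. All 6 aminoacyl-tRNA synthetase genes rose (log2 fold changes 0.29 to 1.14; 5 rose with library totals), as did 5 of 6 serine and one-carbon enzyme genes (5 also with library totals). The 6 had log2 fold changes of 0.23 to 2.99, and Aldh1l2, a mitochondrial folate enzyme gene, did not pass (0.23, edgeR adjusted p = 0.12). Of 9 amino acid carrier genes 6 rose and 2 fell, and with library totals 4 rose and 3 fell.

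Of 37 other folding and import genes, 36 were tested (Fkbp2 was too low), 28 rose and 5 fell, with a median log2 fold change of 0.31. The direction of this list rests on scaling, since with library totals 6 rose and 10 fell, and with upper quartile scaling 20 rose and 8 fell. Ero1l, the oxidase that recharges disulfide isomerases and is also a hypoxia gene, was at 12.4, 12.8 and 13.2 CPM against 68.2, 71.6 and 62.6. The groups were far apart (log2 fold change 2.40, standard error 0.06, edgeR adjusted p = 5.6e-11). Fkbp11, a prolyl isomerase of secretory cells, was at 1.26 ± 0.108 CPM in quiescent and 5.10 ± 0.258 in senescent libraries (SD, n = 3 per group) and rose, with a log2 fold change of 2.02. Cnpy2 (-0.84) and Uggt1 (-0.28), the glucosyltransferase that re-tags unfolded glycoproteins, fell. All 12 translocon and signal peptidase genes in the list rose by small amounts (0.11 to 0.60), a grouping also made after values were seen; with library totals 3 rose and 1 fell. Of 20 other ERAD genes, 12 rose and 5 fell (5 and 9 with library totals), with a median log2 fold change of 0.16. Ube2g2, a ubiquitin-conjugating enzyme gene, had 0.79 and Nploc4, for a cofactor of the VCP extraction motor, 0.71, both higher, while Ngly1 (-0.42) and Rnf139 (-0.38) fell.

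Of 29 other regulators of eIF2 and the unfolded protein response, 18 rose and 6 fell, with a median log2 fold change of 0.27 (10 and 10 with library totals). Atf3, a transcription factor gene downstream of ATF4 and of many other stresses, was at 1.27, 1.61 and 1.69 CPM against 8.67, 9.09 and 11.8. All senescent libraries were several times above the quiescent ones (log2 fold change 2.69, standard error 0.15, edgeR adjusted p = 2.3e-07). Wfs1, for wolframin, an endoplasmic reticulum membrane protein that restrains ATF6, was higher in senescent cells, at 24.5 ± 0.299 CPM against 6.41 ± 0.342 (SD, n = 3 per group; log2 fold change 1.93). Mbtps1, for the Golgi protease that makes the first cut in ATF6, fell from 38.8 ± 1.40 to 23.0 ± 1.91 CPM (log2 fold change -0.75), and the adaptor gene Nck1 fell by 0.42 on the log2 scale. Among the 4 kinases that phosphorylate eIF2, also grouped after values were seen, Eif2ak4 (GCN2, the sensor of uncharged tRNA) rose by 0.89 on the log2 scale. Eif2ak1 (HRI) and Eif2ak2 (PKR) fell by 0.35 and 0.34, and Eif2ak3 is described above. The 3 eIF2 subunit genes and the 5 genes of its exchange factor eIF2B all rose (0.41 to 0.69 and 0.25 to 1.54); with library totals 2 and 3 of them rose and none fell.

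**Figure D5:**
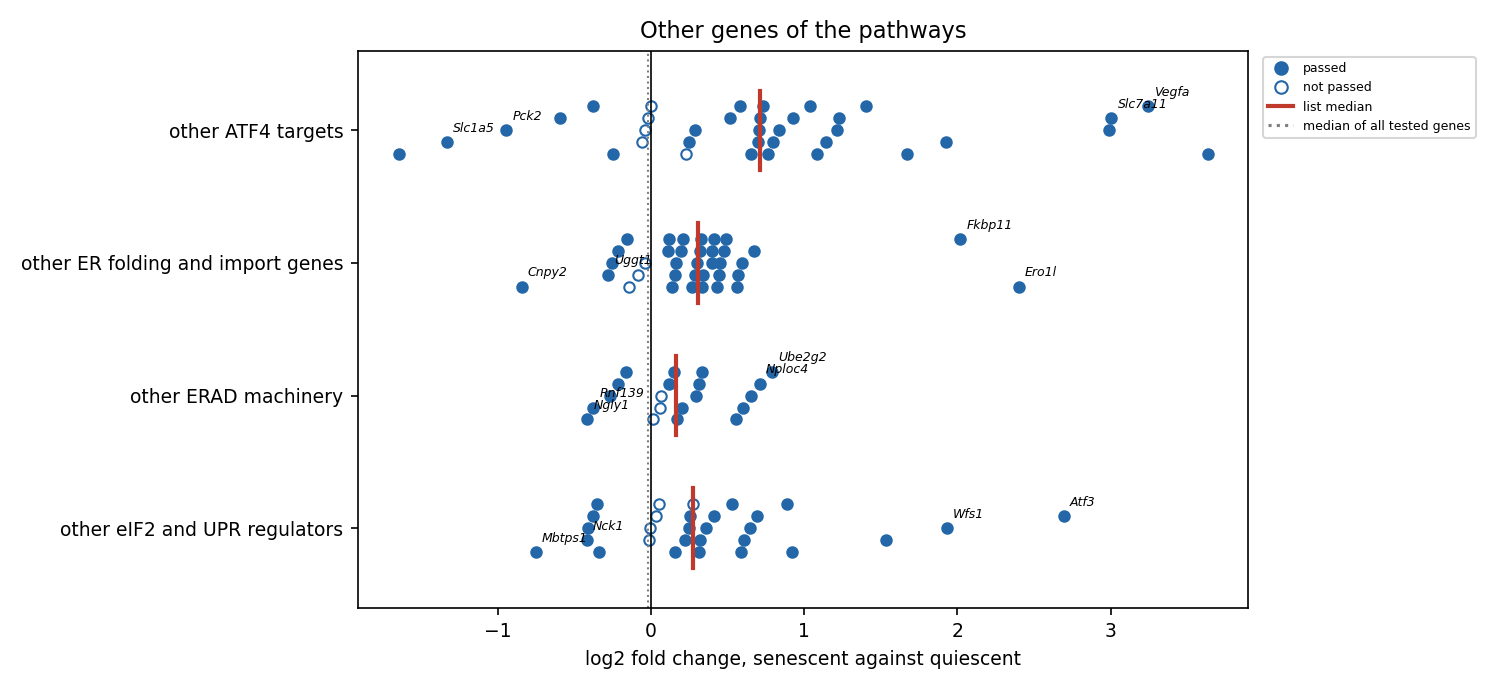
Log2 fold change (senescent over quiescent) of the tested genes in 4 lists of other pathway genes, with labels on the genes chosen by the naming rule, filled points for genes that passed the edgeR test, a red line at each list's median and a dotted line at the median of all tested genes. Medians of 0.71, 0.31, 0.16 and 0.27 lie to the right of -0.02, and the ATF4 target list spreads widest.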

How the data were processed

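Total RNA depleted of ribosomal RNA was sequenced as paired reads of 100 bp from a directional library, per the labels' protocols. The values the authors deposited are unnormalized counts for each gene symbol. The submitters' processing notes list mm10, edgeR 3.32.1 and limma 3.46.0 without saying what each was used for; the sources used here do not state the aligner, the counter or the use of strand. The repeat table of the series was not used here. The labels list replicates as samples without naming cultures or animals; the spread behind every p-value is that between these samples and may be technical.

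Counts were fitted with edgeR 4.0.16 in R 4.3.3 (filterByExpr with a minimum count of 10, TMM factors, robust quasi-likelihood F test, Benjamini-Hochberg adjustment over all 14065 tested genes, threshold 0.05); all 33 genes passed the filter. Standard errors are the log2 fold change over the square root of F. Positions and merged exon lengths come from GENCODE M21 (GRCm38, the assembly that mm10 names), and promoters from RefSeq. The test was checked on simulated counts. Named genes were the 33 and, per further list, the 2 highest and 2 lowest that passed at a mean log2 CPM of at least 0; others were chosen after their values were seen. Genes and lists were chosen with earlier results of these data known. Alternatives were other scalings, filters and thresholds, DESeq2 1.42.0, limma-voom (limma 3.58.1), a replicate block and each library left out.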

Additional observations from a re-analysis of the deposited data

How the results depend on the processing

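Of the 33 genes, 17 kept direction and call under all 16 alternatives tried. The 17 include Derl3, which passed in none of them. The 16 further named genes kept theirs too, but they were picked as the extremes among genes that passed, so this says little about stability. Scaling decided most of the rest, since the median over all 14065 tested genes, -0.02 with TMM, became -0.32 with library totals and -0.12 with upper quartile scaling. With TMM after removal of the ribosomal rows the median of all tested genes was -0.02. Set against the median of all genes, the ATF4 arm stood at 0.41 with TMM, library totals and upper quartile scaling, and the chaperone arm at 0.15 with each. A change of scaling moves all genes by nearly the same amount, so this agreement was fixed in advance and is no sign of stability. With library totals the arm medians were 0.089 and -0.17, and 2952 genes in all were higher. By direction, 11 of the 33 were then higher and 15 lower, with 5 higher in the ATF4 arm, 4 higher and 7 lower among chaperones, 0 higher in ERAD (all 5 values below 0) and 2 lower among sensors and Xbp1. The further lists then gave 10 lower ATF4 targets, 6 higher and 10 lower folding genes, 5 higher and 9 lower ERAD genes, and 10 higher and 10 lower regulators. Atf4 (-0.12), Hsp90b1 (-0.061), Pdia4 (-0.17), Manf (-0.19), Calr (-0.21), Edem1 (-0.036) and Syvn1 (-0.26) changed sign. Upper quartile scaling gave arm medians of 0.29 and 0.033, 10 lower of the 33, 4 lower chaperones, 2 lower sensors and 8 lower folding genes, with Calr at -0.0031 and Syvn1 at -0.063. At an adjusted p under 0.01, 1 ATF4 arm gene was lower. Because of Eif2ak3, 2 of the sensors and Xbp1 were lower with TMM without ribosomal rows, no filter, or at least 50 counts in 3 libraries. The arm difference became 0.49 with ERAD genes joined to the chaperones. It was 0.48 with the median level of each arm per library in place of the mean. Such a median can fall on different genes in quiescent and senescent libraries. The median log2 fold changes of the arms were 0.39 and 0.13. Leaving out each library gave 1 to 3 lower ATF4 arm genes, 1 to 2 lower sensors, a chaperone median of 0.11 to 0.15, and Syvn1 at -0.051 without senescent replicate 3 to 0.091 without senescent replicate 2. Replicate numbers were not taken as a pairing, since deviations of same-numbered libraries correlated at 0.0512, -0.0101 and 0.0579; a replicate block gave 5124 higher genes in place of 5158 and changed no call among the 33.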
